A study of Mus musculus with 2 samples.

Results

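The genes described here are markers of neutrophils, the adhesion molecules with which leukocytes leave the blood, and cytokines of acute inflammation. The title of the series names neutrophils in the CD36-deficient intestine, and the comparison asks whether their transcripts differed between the genotypes. A list of 38 genes was matched to the array by gene symbol, and the match used no measured values, although the list was drawn up with earlier results of these data known. Of these, 33 were represented by 40 probe sets that carried the symbol of that gene alone, out of 18194 genes on the array. Ly6g, Retnlg, Fpr1 and Cebpe had no such probe set and were not analysed here. Il22 was read only by a probe set shared with Iltifb, which is given below and not counted.

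The material was RNA of the proximal intestine from 2 groups of chow-fed mice on the C57BL/6 background. The CD36KO group carried a germline deletion of Cd36, and the deletion is present in every cell type. Cd36 encodes a membrane receptor for fatty acids, oxidized lipoproteins and thrombospondin. The WT group had the intact gene. Each group was 1 pool of 3 animals on 1 Affymetrix array, so n = 1 per genotype. There was no replicate, no test was run, and no difference below could be set against the spread between animals or arrays. Age, sex and the name of the allele are not given in the labels. Both groups were kept under the same cycle of 12 h of light.

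Neutrophils are short-lived phagocytes made in the bone marrow. Primary granule proteins are transcribed mainly in promyelocytes and specific granule proteins mainly in myelocytes, so mature cells in tissue hold these proteins with little of their mRNA, while S100a8, S100a9 and receptor transcripts persist in mature cells. To leave the blood, neutrophils roll on P- and E-selectin through PSGL-1, then arrest on ICAM-1 through integrins that contain the β2 chain. IL-1, TNF and IL-17 induce the endothelial molecules and the growth factor G-CSF, and GM-CSF prolongs neutrophil survival.

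Upstream sequences are shown for a few members described below. The Elane, Prtn3, Mpo and S100a8 sequences share a motif of PU.1, an ETS factor required for myeloid development. Cd177 is shown because it had the largest difference of all members, and Icam1 because it is an endothelial gene with a known response to NF-kappaB. Each sequence holds the 250 bases before a transcription start in RefSeq, assembly GRCm38.p6, written 5′ to 3′ on the strand of the gene. For Cd177 the last 23 of these bases lie within the annotated span of the gene, and for the others none do. Capitals mark GAGGAAGT or its reverse complement in the first 4, the shorter core GAGGAA in Cd177, and GGNNNTTCC or its reverse complement, a relaxed NF-kappaB motif, in Icam1.
Elane, chr10:79886062-79886311, plus strand: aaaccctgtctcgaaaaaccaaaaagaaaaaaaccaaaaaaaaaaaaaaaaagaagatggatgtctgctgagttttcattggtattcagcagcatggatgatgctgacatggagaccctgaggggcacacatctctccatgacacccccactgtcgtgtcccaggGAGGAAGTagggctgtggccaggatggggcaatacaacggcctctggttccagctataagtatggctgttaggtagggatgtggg
Prtn3, chr10:79879417-79879666, plus strand: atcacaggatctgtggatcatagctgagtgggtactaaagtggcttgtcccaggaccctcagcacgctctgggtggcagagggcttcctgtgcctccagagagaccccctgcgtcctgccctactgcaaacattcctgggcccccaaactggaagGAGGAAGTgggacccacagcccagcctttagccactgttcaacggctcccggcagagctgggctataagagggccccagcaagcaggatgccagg
Mpo, chr11:87793534-87793783, plus strand: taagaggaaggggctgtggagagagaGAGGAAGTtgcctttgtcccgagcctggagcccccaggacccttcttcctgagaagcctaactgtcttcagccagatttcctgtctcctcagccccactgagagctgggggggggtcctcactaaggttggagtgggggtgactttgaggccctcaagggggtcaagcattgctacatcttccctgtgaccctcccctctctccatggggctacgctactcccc
S100a8, chr3:90668821-90669070, plus strand: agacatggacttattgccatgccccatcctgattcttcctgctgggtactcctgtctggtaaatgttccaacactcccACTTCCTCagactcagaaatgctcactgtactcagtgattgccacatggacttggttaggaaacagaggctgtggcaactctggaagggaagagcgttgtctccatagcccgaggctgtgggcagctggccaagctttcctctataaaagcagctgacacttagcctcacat
Cd177, chr7:24760312-24760561, minus strand: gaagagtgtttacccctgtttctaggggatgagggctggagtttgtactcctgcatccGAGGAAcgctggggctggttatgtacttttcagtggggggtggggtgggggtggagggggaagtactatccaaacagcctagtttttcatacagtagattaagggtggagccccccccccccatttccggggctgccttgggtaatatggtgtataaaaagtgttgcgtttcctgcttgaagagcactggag
Icam1, chr9:21015690-21015939, plus strand: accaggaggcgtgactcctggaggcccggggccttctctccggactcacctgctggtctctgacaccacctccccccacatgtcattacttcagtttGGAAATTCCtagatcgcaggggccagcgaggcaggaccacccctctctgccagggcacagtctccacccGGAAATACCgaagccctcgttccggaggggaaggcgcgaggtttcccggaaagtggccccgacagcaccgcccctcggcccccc

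Both strands were searched, and 33 of the 38 listed genes had such a sequence, though not the same 33 as were measured, since Itgb2, Selplg, Vcam1, Csf3 and Cebpe had none in the table. GAGGAAGT was present for 5 of these 33 genes (Elane, Ly6g, Mpo, Prtn3 and S100a8), or 15.2%, against 2.44% of all 32851 upstream sequences. Its core GAGGAA, which lies inside the longer motif, was present for 17 genes and in 23.3% of all sequences. GGNNNTTCC was present for 10 of the 33 genes and in 15.7% of all sequences. A longer NF-kappaB form was present for 2 genes (4.65% of all sequences) and the longest form for 1 gene, Il6 (1.41% of all sequences), both being forms of this motif with more fixed bases. TTNNGCAA, a C/EBP motif, was present for 8 genes and in 9.56% of all sequences. The capitals shown above overlapped no other motif of this search except the core within the longer form. A match is a run of letters in this window and was not tested as a binding site.

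The values were deposited by the authors on a log2 scale, 1 per probe set, and a difference is CD36KO minus WT. Where a gene had several probe sets, the one with the highest mean was used for counts. The others are given beside it for every member and for some genes outside the members. A gene was counted as above the expression filter where its higher value reached 4.51, which is what the middle probe set of the array reached on that measure. As a second mark of background, 44 probe sets of olfactory receptor genes had a median of 3.15 and a 95th percentile of 4.58 over both arrays. Some of these genes may be expressed in gut tissue, and 7.95% of their values reached the filter. Of all genes, 34.1% were below the filter on both arrays. The table holds no detection calls, so a low value could not be told from absence of signal, and levels of different probe sets are not compared with each other.

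Cd36 was lower in the pool labelled CD36KO. Its 3 probe sets read 6.02, 5.87 and 3.52 in the CD36KO pool, against 7.68, 7.70 and 4.74 in the WT pool, which is 3.17-fold, 3.56-fold and 2.33-fold lower. In CD36KO 2 of the 3 readings remained above the expression filter. How they lie relative to the deletion is unknown here, and readings from beyond it would say nothing about the labels. Enterocyte genes were abundant in both pools, as Fabp1, a fatty acid binding protein, read 13.17 in CD36KO and 13.58 in WT. The medians of the arrays were 4.38 in CD36KO and 4.38 in WT. The controls for RNA coverage differed, since the 3′ minus 5′ value of beta-actin was 1.34 in CD36KO and 2.28 in WT, and that of GAPDH was 0.71 in CD36KO and 1.28 in WT. All 18 hybridization control probe sets were lower in CD36KO (median difference -0.28), and 23 of 24 poly-A controls were lower (median difference -0.57). Acinar genes of the pancreas were higher in CD36KO for 7 of 7 measured (median difference 1.93), among them Cpa1, Cpb1, Ctrb1, Cela2a, Prss2 and Cela1 with differences between 1.55 and 2.40. Genes of the distal small intestine were higher for 7 of 7 (median 2.08), among them Fabp6, Fgf15, Tmigd1, Guca2a, Slc10a2 and Pyy between 1.55 and 6.67, of which Fgf15 and Slc10a2 were below the filter in WT. Proximal genes were lower for 8 of 8 (median -0.83), with Pdx1, Trpv6, Slc40a1, Cybrd1 and Adh1 past 1.5-fold at the probe set used. The other probe set of Pdx1 differed by -0.0004, that of Slc40a1 by -0.53 and that of Cybrd1 by -0.45, each under 1.5-fold. The part of these differences in the Cd36 readings and in the values below was not tested.

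Most neutrophil, adhesion and cytokine genes were near background in both pools. Of the 33 genes measured, 21 were below the filter on both arrays, and the same number were below the olfactory receptor percentile. In bulk tissue, fewer cells of a type and less RNA per cell cannot be told apart. Over all 33 the median difference was 0.01, with 18 genes higher in CD36KO, 14 lower and 1 equal, and over all genes of the array the median was -0.01, with 47.8% higher in CD36KO and 51.5% lower. Above the filter stood 12 members, of which 2 had a value at least 1.5-fold higher in CD36KO, Cd177 and Itgb2, where 5.31% of all genes above the filter were. In the other direction 1 of the 12 was at least 1.5-fold lower, Csf2, where 3.31% of all genes above the filter were. At 2-fold, 1 member was higher, Cd177, against 1.61% of all genes above the filter, and 0 were lower, against 0.626%. These are small counts from 1 array per genotype, and with 12 genes a count of 1 or 2 says little about the list.

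**Figure D1:**
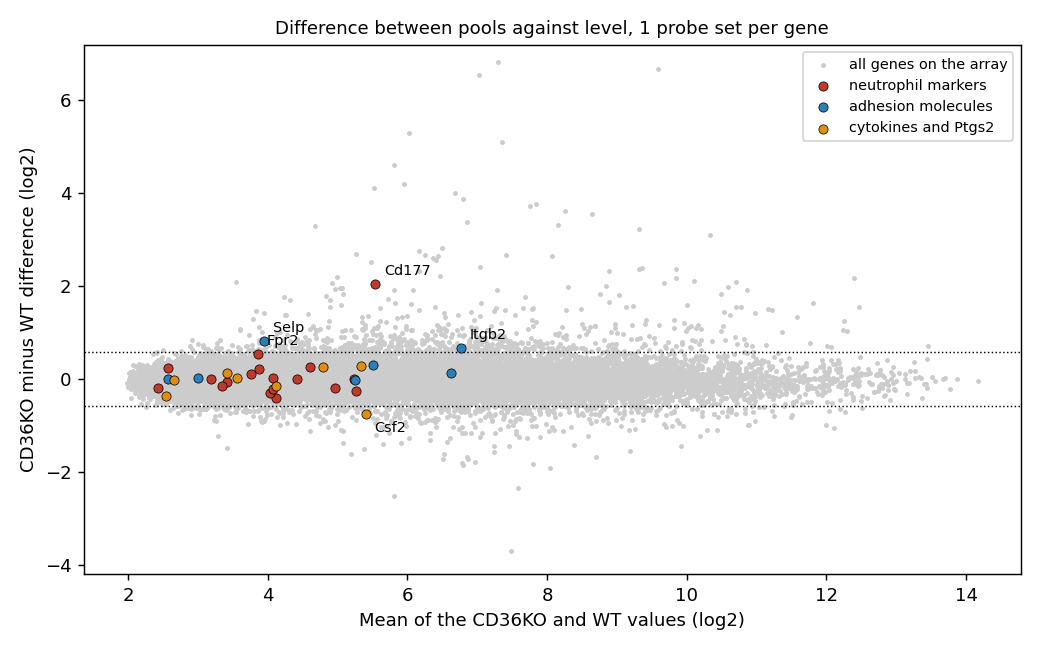
Difference between the CD36KO and WT pools (vertical axis, log2) against the mean of both values (horizontal axis, log2) for every gene, 1 probe set per gene, with neutrophil markers in red, adhesion molecules in blue and cytokines with Ptgs2 in orange; dotted lines mark 1.5-fold. Cd177 (2.06), Selp (0.81) and Itgb2 (0.67) lie above the upper line and Csf2 (-0.76) below the lower line, while the other members lie between the lines.

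The primary granule genes encode the microbicidal enzymes of azurophil granules. Mpo, myeloperoxidase, read 3.92 in CD36KO and 4.32 in WT, a difference of -0.40. Prtn3, proteinase 3, read 3.88 in CD36KO and 4.18 in WT, a difference of -0.30. Both were below the filter in both pools. Ctsg, cathepsin G, was also below it, at 4.08 in CD36KO and 4.07 in WT. Elane, neutrophil elastase, was the only primary granule gene above the filter and was level between the pools, at 5.23 in CD36KO and 5.24 in WT. Prtn3 and Elane are neighbours on chromosome 10, as the sequences above show.

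The specific granule genes differed little as well. Ltf, lactoferrin, which binds iron, was above the filter in both pools, at 4.88 in CD36KO and 5.06 in WT. Ngp, the neutrophilic granule protein, was below the filter at 3.99 in CD36KO and 3.76 in WT. Camp, the precursor of the antimicrobial cathelicidin peptide, was below it at 3.82 in CD36KO and 3.71 in WT. Over the 7 granule genes the differences ran from -0.40 to 0.22 around a median of -0.01, and none passed 1.5-fold in either direction.

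Of the cytosolic, surface and secreted markers, Cd177 alone differed by more than 1.5-fold. Cd177, a GPI-anchored glycoprotein of the neutrophil surface and of specific granules, read 6.57 in the CD36KO pool and 4.51 in the WT pool. This is 4.16-fold higher in CD36KO, a difference of 2.06, which was the 45th highest of 11981 genes above the filter. Its WT value lay just under the filter, so the gene passed the filter through the CD36KO array alone, and the fold depends on a background that is not known. Cd177 had 1 probe set, so no second reading on the array bears on it. Which cells of the bulk tissue held the Cd177 transcript was not tested.

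The calprotectin subunits S100a8 and S100a9, which bind calcium, sequester zinc and are among the most abundant products of mature neutrophils, were near background in both pools. S100a8 read 3.38 in CD36KO and 3.45 in WT. S100a9 read 3.19 in CD36KO and 3.19 in WT, and the deposited values were identical to 6 decimals, as they were for 417 of 45101 probe sets (0.925%). Neither reading approached the filter.

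The remaining markers of this group were low too. Chil3, a chitinase-like lectin of granulocytes and macrophages, read 2.32 in CD36KO and 2.52 in WT, and a probe set shared with its relative Chil4 read 3.42 in CD36KO and 3.35 in WT. Padi4, the deiminase that citrullinates histones in extracellular traps, read 2.69 in CD36KO and 2.45 in WT. Hdc, which makes histamine and is also expressed by mast cells and enterochromaffin-like cells, passed the filter through CD36KO alone, at 4.73 in CD36KO and 4.48 in WT. Its other probe set differed by 0.01, and both of its readings were 2.73.

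Receptors of mature granulocytes gave no difference past 1.5-fold. Csf3r, the receptor of G-CSF, was just below the filter and level, at 4.42 in CD36KO and 4.41 in WT. Fpr2, a formyl peptide receptor that senses bacterial and mitochondrial peptides, read 4.13 in CD36KO and 3.58 in WT, a difference of 0.54 below the filter. Il1r2, the decoy receptor of IL-1, was above the filter and 1.19-fold lower, at 5.14 in CD36KO and 5.39 in WT. Trem1, which amplifies Toll-like receptor signals, read 3.97 in CD36KO and 4.19 in WT at the probe set used, and 3.18 in CD36KO and 3.30 in WT at its other. Clec4d, a C-type lectin receptor of myeloid cells, read 3.28 in CD36KO and 3.42 in WT. Over the 18 neutrophil markers measured the median difference was -0.0037, with 13 below the filter on both arrays. For the 13 low markers a fall or a small rise could not be told from background at these levels.

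**Figure D2:**
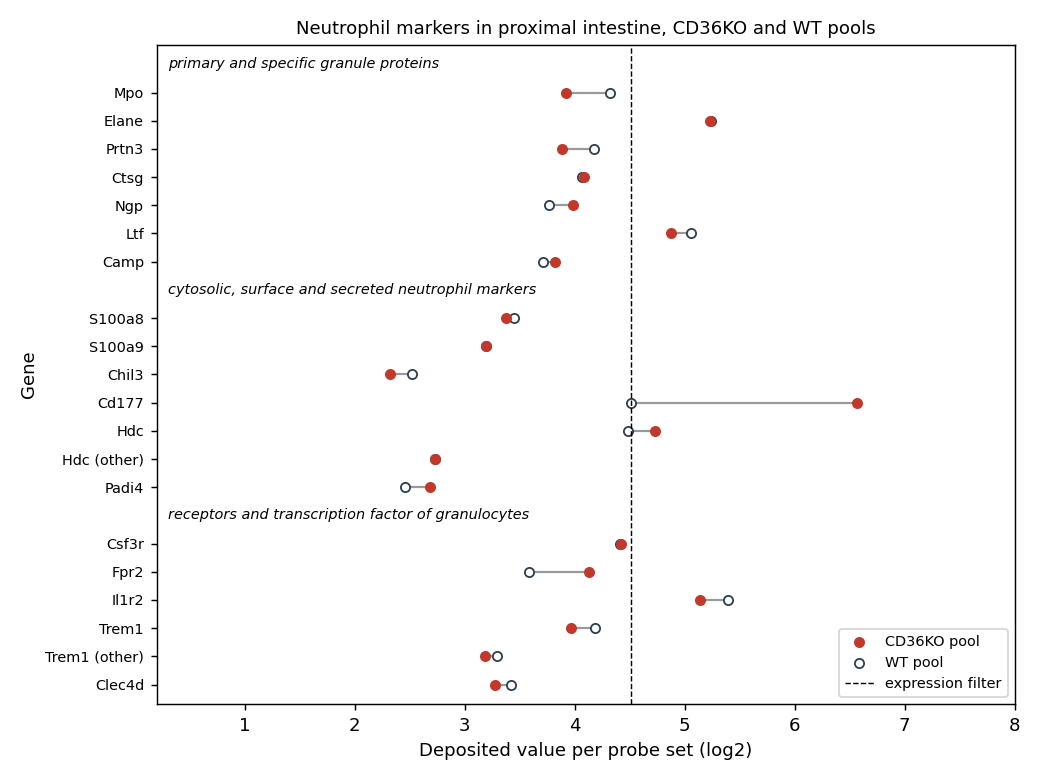
Deposited log2 value of each neutrophil marker probe set (horizontal axis) in the CD36KO pool (filled red) and the WT pool (open), by gene (vertical axis); the dashed line is the filter at 4.51, and further probe sets of a gene are marked as other. Cd177 has the widest gap, at 6.57 in CD36KO and 4.51 in WT, and S100a8 and S100a9 lie near 3.4 or below in both pools.

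A further list of neutrophil genes outside the members was compared, of which 25 of 30 were measured and 16 passed the filter. Past 1.5-fold, 3 of these had higher and 1 had lower values, and the median difference of all 25 was 0.28. Ceacam10 was 2.61-fold higher, at 8.24 in CD36KO and 6.86 in WT, with 0.38 and 0.83 as the differences at its other probe sets. Pglyrp1, a peptidoglycan-binding protein of granules, was 2.28-fold higher, at 10.004 in CD36KO and 8.813 in WT. Cybb, the catalytic subunit of the phagocyte oxidase shared with macrophages, was higher by 0.59, just past 1.5-fold, at 6.80 in CD36KO and 6.21 in WT, with other probe sets between -0.43 and 0.57. Ltb4r1, the receptor of the attractant leukotriene B4, was 1.81-fold lower, at 5.99 in CD36KO and 6.85 in WT. Which cells of the bulk tissue held the Ceacam10 and Pglyrp1 transcripts was not tested.

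Other genes of the same list, picked here with their values in view, include receptors and granule enzymes. Cxcr2, the receptor that draws neutrophils to CXC chemokines, read 4.03 in CD36KO and 3.89 in WT. Mmp8, neutrophil collagenase, read 3.54 in CD36KO and 3.26 in WT. Mmp9, the gelatinase of tertiary granules that macrophages and fibroblasts also make, read 5.32 in CD36KO and 5.27 in WT. Of these, Mmp9 alone was above the filter, as Cxcr2, Mmp8 and Lcn2 were not. Lcn2, the siderophore-binding lipocalin of specific granules that inflamed epithelium makes as well, read 3.30 in CD36KO and 3.05 in WT. The subunits of the phagocyte oxidase that macrophages also express were above the filter with positive differences under 1.5-fold, as Ncf1 (0.50), Ncf4 (0.35) and Cyba (0.54).

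Among the leukocyte adhesion molecules, Itgb2 was higher and Itgam, a partner chain, was near background. Itgb2, the β2 chain of the leukocyte integrins, read 7.10 in CD36KO and 6.43 in WT, a 1.59-fold higher value and the 483rd highest difference of 11981. It had 1 probe set, so no second reading bears on it. Itgam, the αM chain that pairs with β2 in Mac-1 on neutrophils and macrophages, read 3.02 in CD36KO and 2.99 in WT. Selplg, which encodes PSGL-1, the selectin ligand of most leukocytes, read 6.69 in CD36KO and 6.55 in WT.

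The β2 chain is carried by lymphocytes and macrophages as well as neutrophils, and markers of those cells are given beside it. Itgal, the αL chain of LFA-1, was 1.66-fold higher, at 6.43 in CD36KO and 5.70 in WT, with 0.32 at its other probe set. Itgax, the αX chain, read 6.26 in CD36KO and 6.38 in WT. Of 14 macrophage and dendritic cell markers, 12 passed the filter, with 4 past 1.5-fold in the higher and 0 in the lower direction, with a median of 0.28 over all 14. Their summed log2 level was 95.2 in CD36KO and 88.8 in WT. The 4 were Cd68 (5.18 in CD36KO and 3.46 in WT, which is below the filter), the lysozyme Lyz2 (10.57 in CD36KO and 9.46 in WT), C1qc (7.89 in CD36KO and 7.06 in WT) and C1qa (8.02 in CD36KO and 7.22 in WT). Other macrophage markers were under 1.5-fold, among them C1qb (0.15), Csf1r (0.18), Adgre1 (0.28) and Mertk (-0.11). Over all 14 markers, 12 were higher in CD36KO and 2 lower. Among all genes that passed the filter, 5.31% reached 1.5-fold in the higher direction. Of 8 T and B cell markers measured, 1 was higher by 1.5-fold, the B cell gene Ms4a1. It read 6.28 in CD36KO and 5.32 in WT, with a difference of 0.53 at another probe set. The B cell genes Cd79a and Cd79b were higher by 0.55 and 0.40. The T cell genes Cd3d, Cd3e, Cd3g, Cd4 and Cd8a differed by -0.16 to 0.13. The summed log2 level of the 8 markers was 54.2 in CD36KO and 52.5 in WT. The part of these cells in the Itgb2 value was not tested.

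The endothelial adhesion molecules gave mixed readings. Icam1, the ligand of the β2 integrins, read 5.65 in CD36KO and 5.35 in WT, 1.23-fold higher. Vcam1, the ligand of the α4 integrins of lymphocytes, monocytes and eosinophils, was level at the probe set used, at 5.24 in CD36KO and 5.26 in WT. Its second probe set read 5.40 in CD36KO and 4.60 in WT, a difference of 0.80, and its last read 4.14 in CD36KO and 3.71 in WT, a difference of 0.42. The Vcam1 differences thus spanned 0.83 between probe sets. Over 4801 genes with several probe sets above the filter, the median span was 0.35, the 75th percentile 0.57 and the 95th percentile 1.02.

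The selectins were below the filter. Selp, the P-selectin stored in platelets and in endothelial Weibel-Palade bodies, read 4.35 in CD36KO and 3.53 in WT at the probe set used, a difference of 0.81. Its other probe sets read 2.88 in CD36KO and 3.36 in WT, a difference of -0.47, and 2.20 in CD36KO and 1.93 in WT, a difference of 0.26. The Selp readings disagreed in sign, and all lay below 4.51. A difference of at least 1.5-fold in either direction was found for 2.16% of the genes below the filter on both arrays, and for 1 of the 21 such members, Selp. Sele, the E-selectin that endothelium makes on stimulation by IL-1 and TNF, read 2.57 in CD36KO and 2.56 in WT.

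Markers of blood endothelium are given beside these genes. All 12 passed the filter, with 2 past 1.5-fold in the higher direction, Emcn (5.32 in CD36KO and 4.48 in WT) and Pecam1 (4.73 in CD36KO and 3.90 in WT), and 0 in the lower, around a median of 0.38. Both had WT values below the filter. Their summed log2 level was 72.4 in CD36KO and 68.1 in WT. Their part in the Vcam1, Icam1 and Selp values was not tested. In a further list of 21 adhesion and transmigration genes, 20 passed the filter and 3 were at least 1.5-fold higher, Pecam1, Icam2 (4.89 in CD36KO and 4.10 in WT) and Itgal, with a median of 0.35 over all 21. The WT value of Icam2 was below the filter too. Madcam1, the gut addressin that lymphocytes bind, read 5.82 in CD36KO and 5.41 in WT.

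Csf2 was the cytokine with the largest difference and was lower in CD36KO. Csf2, which encodes GM-CSF, read 5.02 in CD36KO and 5.78 in WT, a 1.69-fold lower value and the 178th lowest difference of 11981. This gene had 1 probe set, so no second reading on the array bears on it. Csf3, which encodes G-CSF, the main growth factor of neutrophil production, was below the filter at 4.04 in CD36KO and 4.19 in WT. Il1b, the secreted IL-1 that myeloid cells make, was above the filter at 4.92 in CD36KO and 4.65 in WT, a difference of 0.27. Tnf, which activates endothelium, was above the filter at 5.47 in CD36KO and 5.19 in WT, a difference of 0.27 as well.

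The other cytokines were near background. Il1a, the membrane-bound alarm form of IL-1, read 2.65 in CD36KO and 2.68 in WT. Il6, which drives the acute-phase response, read 2.35 in CD36KO and 2.72 in WT, a difference of -0.37. Il17a, the T cell cytokine that induces G-CSF and neutrophil chemokines, read 3.57 in CD36KO and 3.54 in WT. The probe set shared by Il22 and Iltifb read 2.66 in CD36KO and 2.74 in WT. Ptgs2, the inducible cyclooxygenase, read 3.48 in CD36KO and 3.35 in WT, and its other probe set differed by 0.11. Over the 8 genes of this group that were measured, Ptgs2 included, the median difference was -0.0009.

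**Figure D3:**
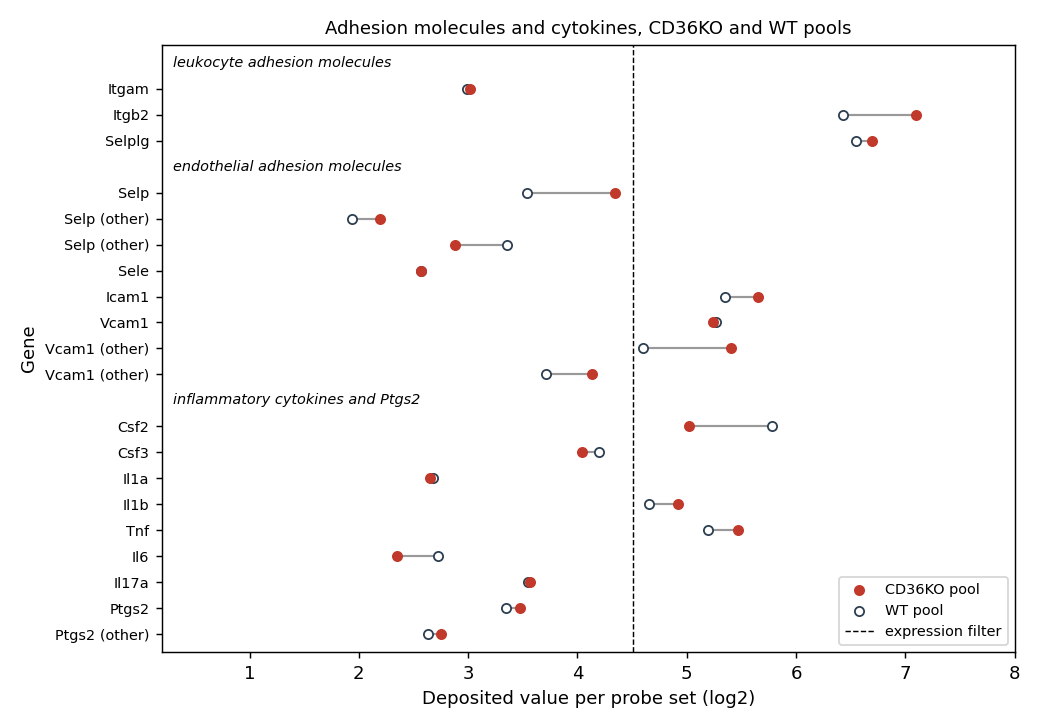
Deposited log2 value of each probe set of the adhesion molecules, cytokines and Ptgs2 (horizontal axis) in the CD36KO pool (filled red) and the WT pool (open), by gene (vertical axis), with the filter at 4.51 as a dashed line. Csf2 lies lower in CD36KO (5.02) than in WT (5.78), Itgb2 lies higher in CD36KO, and the Vcam1 and Selp probe sets differ among themselves.

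The partners of these cytokines were compared through lists outside the members. Of 8 chemokines that attract neutrophils, 6 were below the filter on both arrays, among them Cxcl2 (3.19 in CD36KO and 3.07 in WT) and Cxcl5 (2.38 in CD36KO and 2.21 in WT). The keratinocyte-derived chemokine Cxcl1 was above it at 5.86 in CD36KO and 5.97 in WT. Of 17 genes for receptors of the cytokines and of prostaglandin E2, with the IL-1 receptor antagonist Il1rn among them, 15 were above the filter with 1 at least 1.5-fold higher, Il1r1, the signalling receptor of IL-1 (6.59 in CD36KO and 5.82 in WT, with -0.02 at its other probe set), and the median of all 17 was 0.08. The receptor chains Csf2ra and Csf2rb for GM-CSF differed by 0.38 and 0.44, each under 1.5-fold. The share of all genes above the filter that were at least 1.5-fold higher was 5.31%.

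Of 15 NF-kappaB and inflammasome genes measured, 14 were above the filter, 0 were higher and 2 were lower by 1.5-fold, with a median of 0.0036. These were Il18 (9.75 in CD36KO and 10.39 in WT), a cytokine that epithelium stores, and Nfkbiz (8.49 in CD36KO and 9.10 in WT, with other probe sets between -0.71 and -0.02), a nuclear regulator of NF-kappaB targets. Nfkbia, the inhibitor that NF-kappaB induces, read 11.37 in CD36KO and 11.35 in WT, and Tnfaip3 read 7.67 in CD36KO and 7.66 in WT. None of the 7 prostaglandin genes above the filter passed 1.5-fold. The shares of all genes above the filter past 1.5-fold were 5.31% higher and 3.31% lower.

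Several epithelial genes that IL-17 or IL-22 can induce were higher, and the transcripts of both cytokines were near background. Of 9 above the filter, 6 passed 1.5-fold in the higher direction and 0 in the lower, with a median of 0.66 over the 11 measured. They were Saa1 (10.30 in CD36KO and 3.74 in WT), Duoxa2 (6.61 in CD36KO and 3.91 in WT), Saa2 (5.94 in CD36KO and 3.99 in WT), Reg3g (13.25 in CD36KO and 11.69 in WT), Reg3b (a difference of 0.72, with 0.30 at its other probe set) and Saa3 (0.66). The WT values of Saa1, Duoxa2 and Saa2 were below the filter. Nos2 and Pigr, which belong to the same list, differed by 0.06 and -0.23. Genes of the distal small intestine were higher in the same pool, with Fabp6 at 12.92 in CD36KO and 6.25 in WT, and their part in these values was not tested. Past 1.5-fold, 5.31% of all genes above the filter were higher and 3.31% lower.

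Mast cells and eosinophils express some of the members, Hdc among them. Of 14 of their markers, 10 were below the filter on both arrays, and the 4 above it were at least 1.5-fold higher, Mcpt1 (6.02 in CD36KO and 4.06 in WT, which is below the filter), Mcpt2 (5.58 in CD36KO and 4.54 in WT), Siglecf (5.70 in CD36KO and 4.76 in WT) and Kit (6.40 in CD36KO and 5.59 in WT, with -0.01 at its other probe set). Among all genes that passed the filter, 5.31% reached 1.5-fold in the higher direction. Over all 14 markers the median was 0.20, with 9 higher in CD36KO and 5 lower. The lower ones included Tpsb2 (-0.52), Ms4a2 (-0.38) and Mcpt4 (-0.26), each below the filter on both arrays. The eosinophil granule genes Epx and Prg2 were below the filter at 3.04 and 4.11 in CD36KO, against 3.13 and 3.62 in WT.

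**Figure D4:**
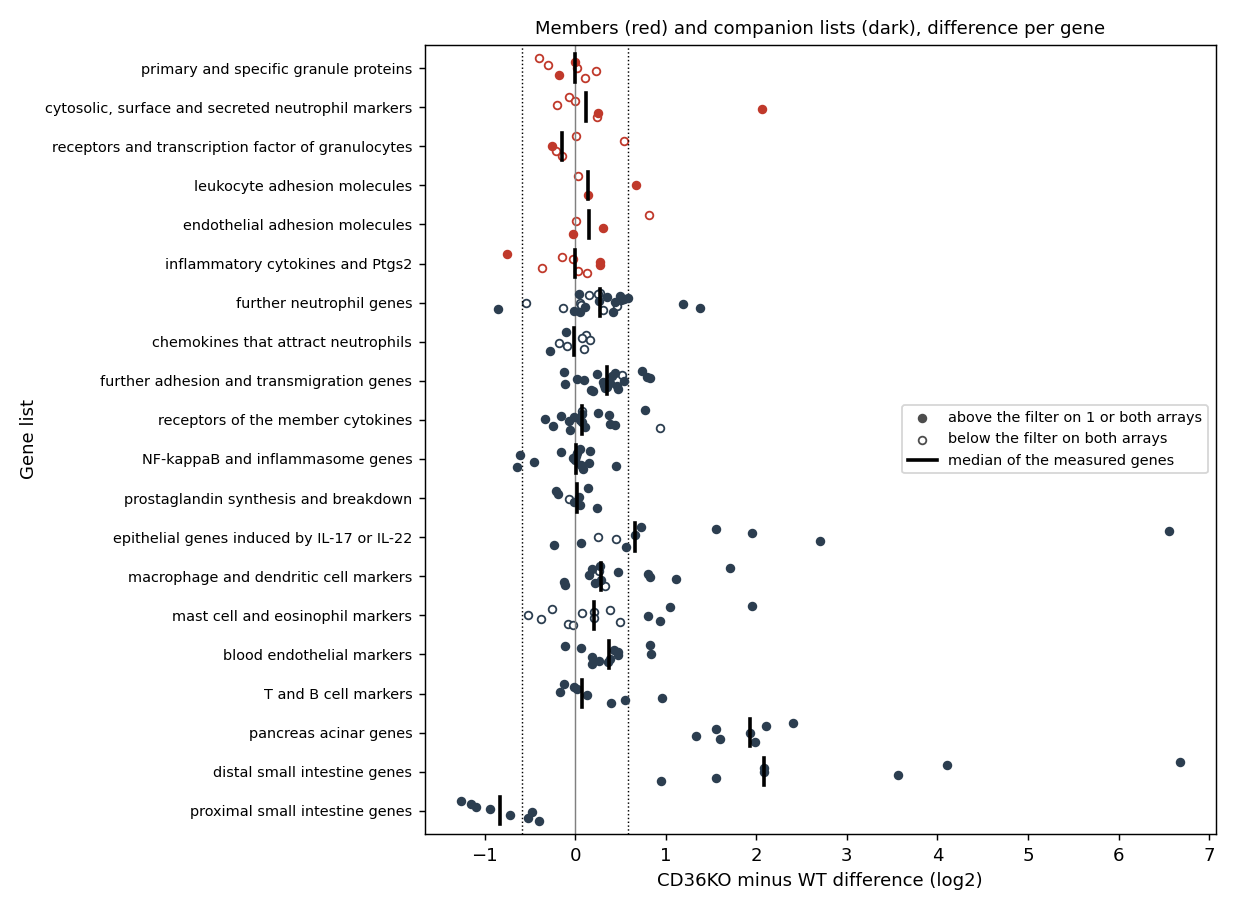
CD36KO minus WT difference (horizontal axis, log2) of each measured gene in the 6 groups of members (red) and in 14 companion lists (dark); open points were below the filter on both arrays, black bars are medians of the measured genes and dotted lines mark 1.5-fold. The members lie mostly between the dotted lines, with Cd177 at 2.06 as the farthest, and the pancreas (median 1.93) and distal intestine (median 2.08) lists lie to the right.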

How the data were processed

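The authors deposited 1 table of log2 values for 45101 probe sets on 2 arrays, per the labels made from biotinylated cRNA of 100 ng of total RNA under the standard Affymetrix protocol. The log2 scale follows from the values, which reach 14.2; no label or file header names the summarization or normalization. The number of arrays limits the precision. Probe sets were named from the platform annotation: 34958 had a lone gene symbol, 9211 are unnamed here, and the 932 with several symbols were left out. The identifiers of 34754 were found in RefSeq (GRCm38.p6).

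No normalization was added. Differences are CD36KO minus WT of the log2 values, with 1.5-fold as threshold, 1 probe set per gene (the highest mean) and the filter at 4.51. The members and lists were chosen with earlier results of these data known. Named were all members, and in each companion list up to 6 genes above the filter past 1.5-fold; other companion genes were chosen after their values were seen. Alternatives were centring, quantile normalization, lowess (fraction 0.3), other probe set rules, filters and a 2-fold threshold. The summary was tested on simulated data. The software was matplotlib 3.10.9, statsmodels 0.14.6, NumPy 2.4.6 and pandas 2.3.3 under Python 3.11.15.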

Additional observations from a re-analysis of the deposited data

How the results depend on the processing

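The 2 higher members, the 1 lower member and the 21 members near background kept these counts under centring, quantile normalization, lowess and the olfactory receptor filter, and the near-background count was 22 with the mean over probe sets or with the probe set of smallest difference. With a filter at the 75th percentile (6.60) the counts were 1 higher (Itgb2) and 0 lower, since Cd177, at 6.57 in CD36KO, and Csf2 then fell below the filter, and with a 2-fold threshold they were 1 higher (Cd177) and 0 lower. Without a filter 3 members were higher, with Selp added. The median of the neutrophil markers ranged from -0.012 (quantile normalization) to 0.0063 (lowess), and that of the cytokines was 0.025 under lowess and 0.27 for the 3 members above the filter, so neither has a settled sign. The median of the adhesion molecules ranged from 0.11 (quantile normalization) to 0.22 (members above the filter). Under the 3 scalings 1 member changed sign, Il1a, whose difference was -0.03. With the mean over probe sets the difference was 0.40 for Vcam1 and 0.20 for Selp. No paired analysis was possible because each genotype was 1 pool, and leaving out a replicate was not possible for the same reason. Signal over background limits the 21 low members, in which a fall or a small rise could not be told from background. Large rises from below the filter were seen for other genes such as Saa1. Those rises do not show how large a rise in the 21 members would have been seen.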
